A study of Mus musculus with 12 samples.

Results

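Carbonic anhydrases convert carbon dioxide and water to bicarbonate and a proton, and back. In the colon, this reaction supplies the ions that surface colonocytes exchange for sodium and chloride, so the family is closely tied to salt absorption and to bicarbonate secretion. Its members differ in where the enzyme sits: in the cytosol, in mitochondria, on the cell surface or outside the cell. The genes described here are Car1, Car2, Car3, Car4, Car7, Car8, Car9, Car12, Car13 and Car14. They were taken by symbol, after the Ensembl identifiers of the count tables had been matched to mouse symbols, and make up 10 of the 16 carbonic anhydrase family genes counted and 10 of 38924 genes in all.

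RNA from the proximal colon of 12 female C57BL/6 mice, 6 APC Min/+ and 6 WT, was sequenced in paired ends at 6 weeks of age, in 1 library per mouse. APC Min/+ mice are heterozygous in the germline for the Min allele, a truncating mutation of the Apc gene. These mice later develop intestinal polyps, but no neoplasia was seen at this age. The WT mice carry 2 intact alleles, and mice of the 2 genotypes were housed in separate cages. The Min allele is a single change in the coding sequence, so a count per gene does not check the genotype labels. Total counts on genes ranged from 50313805 to 197914821 per mouse, and 20311 genes passed the filter of at least 10 counts in at least 3 mice. All 10 carbonic anhydrase genes passed it, and the lowest count of any of them in any mouse was 40. Levels of one gene are given in CPM (counts per 1000000 counts on genes, scaled by TMM factors), and levels of different genes are compared in RPKM (CPM per kilobase of the gene length in the tables).

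Libraries M10_2 and M13_1, both APC Min/+, stood apart from the rest and are named throughout. Over all tested genes, the log2 CPM of these 2 libraries correlated with each other at r = 0.991 and with the other 10 libraries at 0.943 to 0.968, against 0.961 to 0.997 among the other 10. Hoxb13, a Hox gene of the posterior end of the body whose expression in the gut is known from the distal colon and rectum, reached 378 CPM in M10_2 and 275 CPM in M13_1. The other 10 mice held between 0 and 0.744 CPM of Hoxb13, and 4 of them had no count at all. Hoxa13 was counted at 76.5 and 61.8 CPM in M10_2 and M13_1, against 0.921 to 2.75 CPM in the other 10. Hoxd13 was counted at 12.4 and 209 CPM, against 0.0553 to 0.533 CPM. Whether the tissue of these 2 mice came from the same stretch of colon as that of the others was not tested. The labels name proximal colon for every mouse, and all 10 colon epithelium markers, such as Epcam and Krt20, were counted in every mouse, with a summed level of 11256 to 18515 CPM.

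An active carbonic anhydrase holds a zinc ion with 3 histidines, and 2 of these lie close together in the protein. The stretch of coding sequence around them is shown for the 5 members with the highest levels, because it codes for part of the active site that these enzymes share. Each line is 45 bases of the sense strand from the longest GENCODE M21 coding transcript, 5′ to 3′, and capitals mark the histidine codons of the zinc site.
Car1: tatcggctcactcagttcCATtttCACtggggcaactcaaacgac
Car2: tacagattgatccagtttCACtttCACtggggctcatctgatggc
Car4: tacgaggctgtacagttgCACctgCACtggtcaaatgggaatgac
Car3: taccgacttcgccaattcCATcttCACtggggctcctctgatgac
Car12: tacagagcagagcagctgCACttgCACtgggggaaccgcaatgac
In GRCm38 the Car1 stretch lies at chr3:14776263-14776307 on the reverse strand, in exon 3 of 7. That of Car2 lies at chr3:14895051-14895095 on the forward strand, in exon 3 of 7, and that of Car3 at chr3:14866832-14866876 on the forward strand, also in exon 3 of 7. The Car4 stretch is at chr11:84964149-84964193 on the forward strand, in exon 4 of 8. The Car12 stretch is at chr9:66747629-66747673 on the forward strand, in exon 4 of 11. Both histidine codons were present in all 5. Over these 45 bases, Car1 shared 64.4% of its bases with Car2, 71.1% with Car3 and 53.3% with Car4.

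The cytosolic genes Car13, Car1, Car3 and Car2 lie side by side, in that order, in 259 kb of chromosome 3 (GRCm38, chr3:14641727-14900770). Car1 lies on the reverse strand and the other 3 on the forward strand, and the GENCODE M21 annotation has no other protein coding gene in this span. The remaining members are scattered: Car14 lies elsewhere on chromosome 3, Car8 and Car9 on chromosome 4, and Car7, Car12 and Car4 on chromosomes 8, 9 and 11.

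Car1 was the dominant carbonic anhydrase of these colons. It encodes a cytosolic enzyme that is also abundant in red blood cells. Its level in the 6 WT mice was 14070, 11720, 19420, 15380, 15600 and 26090 RPKM in M19_1, M17_2, M16_1, M18_2a, M17_1 and M18_b. In the APC Min/+ mice M8_2, M18_2b, M2_A and M20_1 it was 17410, 12170, 22060 and 21000 RPKM, but it was 774 RPKM in M10_2 and 2035 RPKM in M13_1. The 4 former APC Min/+ mice thus lay inside the WT range, and the latter 2 far below it. Car1 took up 1.56% to 2.95% of all counts on genes in the 10 mice without high Hoxb13, and was the gene with the second highest count in 9 of them. It took up 0.101% in M10_2 and 0.279% in M13_1.

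Car2, the fast cytosolic isoform found in most tissues, came second and varied least in proportion among the 3 most abundant genes. Its median was 612 RPKM, with a range of 450 to 903 RPKM over the 12 mice. The highest and the lowest mouse were both WT. M10_2 and M13_1, with 700 and 774 RPKM, lay within the range of the other 10.

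Car4 ranked next, with a median of 175 RPKM. It encodes an enzyme tethered to the outer face of the cell membrane by a lipid anchor. Its level was 470 RPKM in M10_2 and 485 RPKM in M13_1, above every other mouse, since the other 10 ranged from 123 to 296 RPKM.

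**Figure D1:**
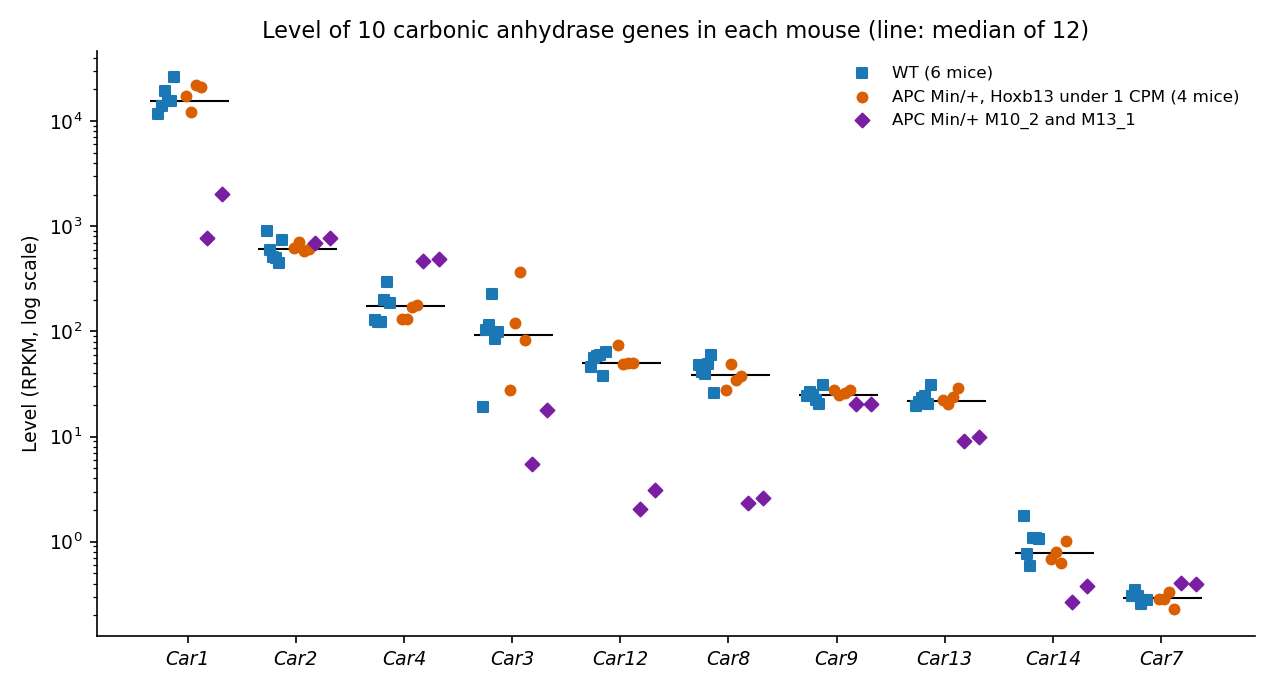
RPKM (log axis) of the 10 carbonic anhydrase genes, ordered by their median over 12 mice (line), with 1 point per mouse: squares are WT, circles are APC Min/+ mice with Hoxb13 under 1 CPM and diamonds are APC Min/+ M10_2 and M13_1. Car1 had a median of 15489 RPKM and Car7 one of 0.293 RPKM, and the diamonds fall well below the other points for Car1, Car12 and Car8 and above them for Car4.

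The order by median RPKM went on with Car3 (92.3), Car12 (50.1), Car8 (38.5), Car9 (24.9), Car13 (21.8), Car14 (0.774) and Car7 (0.293). Car1 exceeded Car2 in all 12 mice, by a median factor of 29.4 that fell to 1.10 in its lowest mouse, and Car2 exceeded Car4 in all 12 mice by a median factor of 3.66. Lower in the order, neighbors could not be separated so cleanly. Car4 lay above Car3 in 10 of 12 mice, Car3 above Car12 in 10, Car12 above Car8 in 9, Car8 above Car9 in 8, and Car9 above Car13 in 8, and in each of these pairs the ranges over the mice overlapped. The step from Car13 to Car14 was a clear one: Car13 was at least 11.2 times higher in each mouse, and the ranges did not overlap. Car14 exceeded Car7 in 10 of 12 mice. The order was the same when the 2 libraries with high Hoxb13 were left out.

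Of the summed RPKM of the 10 genes, Car1 made up 93.9% ± 1.80 (SD, n = 6) in WT mice, with a range of 90.8% to 95.7%. Car2 made up 3.66% ± 1.72 and Car4 1.02% ± 0.437 (SD, n = 6). In the 4 APC Min/+ mice with little Hoxb13, Car1 made up 94.9%, 91.7%, 94.6% and 95.4% (M8_2, M18_2b, M2_A and M20_1). In M10_2 the shares were 39.0% for Car1, 35.3% for Car2 and 23.7% for Car4. In M13_1 they were 60.8%, 23.1% and 14.5%. The summed level was 1984 RPKM in M10_2 and 3348 RPKM in M13_1, against 12905 to 27265 RPKM in the other 10 mice.

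**Figure D2:**
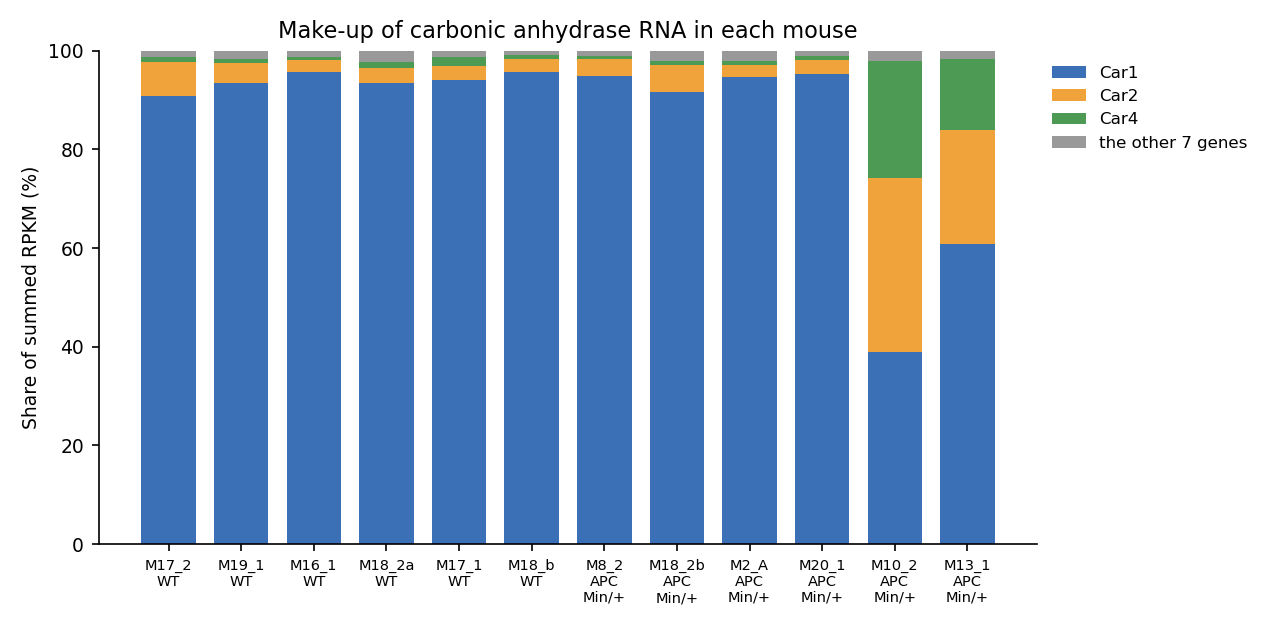
Share of the summed RPKM of the 10 carbonic anhydrase genes (bars, 0 to 100%) taken by Car1, Car2, Car4 and the other 7 genes in each of 12 mice. Car1 takes 90.8% to 95.7% in every mouse but M10_2 and M13_1, where Car2 and Car4 take 23.1% to 35.3% and 14.5% to 23.7%.

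The study asked how gene expression of the proximal colon differs between APC Min/+ and WT mice before polyps appear. None of the 10 carbonic anhydrase genes passed an FDR of 0.05 between genotypes. With edgeR's quasi-likelihood test on all 12 mice, their FDR values lay between 0.908 and 0.991. The test called 0 of 20311 genes at an FDR under 0.05 and a 2-fold change (0.0%), and 1071 genes (5.27%) had an unadjusted p under 0.05. The study, which used edgeR with the same 2 thresholds, did list differentially expressed genes, among them Atp12a but none of the 10. It does not name the edgeR test it used. DESeq2 called 29 genes and edgeR's likelihood ratio test 15 genes at an FDR under 0.05, and no carbonic anhydrase gene was among them in either. At an unadjusted p under 0.05 there was 1 of the 10, Car14, where a share of 5.27% applied to all genes. Genotypes did not overlap for 0.118% of all genes and for 0 of the 10.

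Among the cytosolic enzymes, Car1 averaged 15693 ± 11639 CPM in the APC Min/+ group and 21274 ± 6353 CPM in the WT group (SD, n = 6 each). The log2 fold change of APC Min/+ over WT came to -0.44, with a standard error (SE) of 0.61 and an FDR of 0.914. Above the WT median lay 3 of the 6 APC Min/+ mice. Without M10_2 and M13_1 the log2 fold change came to 0.09 (SE 0.23). Car2 had a log2 fold change of 0.11, with a 95% interval of -0.23 to 0.44, and lay within the WT range in 6 of 6 APC Min/+ mice. Car13, a cytosolic isoform of several tissues, had one of -0.30 (SE 0.26), which was 0.03 without M10_2 and M13_1.

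Car3, which encodes a cytosolic enzyme of low activity that is abundant in fat and skeletal muscle, was the member that varied most between mice. Its lowest, median and highest levels were 8.18, 84.0 and 556 CPM in APC Min/+ mice, and 29.0, 153 and 341 CPM in WT mice. Its fitted log2 fold change was -0.06 with an SE of 0.80, and the 95% interval ran from -1.64 to 1.52. This interval holds changes of more than 2-fold in either direction, so a change of that size in Car3 could not be told from none. Decreases of more than 2-fold also lay in the intervals of Car1 (-1.64 to 0.76), Car8 (-1.96 to 0.43) and Car12 (-1.77 to 0.80). The interval of Car14 (-1.39 to -0.11) held such a decrease too, and that of Car4 (-0.17 to 1.31) an increase of that size. Car7, a cytosolic isoform best known from neurons, ranged from 0.562 to 0.9998 CPM, with a log2 fold change of 0.13 (SE 0.18).

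Among the enzymes on the cell surface, Car4 was counted at 257, 344 and 953 CPM (lowest, median and highest) in APC Min/+ mice and at 241, 310 and 582 CPM in WT mice. This gave a log2 fold change of 0.57 (SE 0.38, FDR = 0.908), and -0.20 without M10_2 and M13_1. Car12, a transmembrane enzyme with its active site outside the cell, was counted at 9.34, 225 and 335 CPM in APC Min/+ mice and at 170, 258 and 286 CPM in WT mice. On the log2 scale its fold change was -0.49 (SE 0.66) with 12 mice and 0.07 (SE 0.17) with 10. Car9, a transmembrane enzyme known as a target of the hypoxia response, had the lowest coefficient of variation of the 10 over the 12 mice, 13.8%, and averaged 56.4 ± 8.02 CPM in the APC Min/+ group and 57.2 ± 8.40 CPM in the WT group (SD, n = 6 each). The 95% interval of its log2 fold change was -0.26 to 0.22.

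Car14, a transmembrane isoform with an extracellular active site, was counted at 0.677, 1.66 and 2.61 CPM (lowest, median and highest) in APC Min/+ mice and at 1.49, 2.73 and 4.48 CPM in WT mice. The ranges overlapped, and 0 of 6 APC Min/+ mice lay above the WT median. On the log2 scale the fold change was -0.75 (SE 0.33), with an unadjusted p of 0.0396 and an FDR of 0.908 in edgeR. An exact permutation test over all relabellings of the mice, two-sided, gave p = 0.0606. Leaving out M10_2 and M13_1 moved the log2 fold change to -0.44 (SE 0.28), and among 10 mice 0 of the 10 members had an unadjusted p under 0.05, where 1.59% of all genes did. In that fit the quasi-likelihood test called 0 of 19978 genes at an FDR under 0.05, and 317 had an unadjusted p under 0.05.

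Car8, which encodes a protein without carbonic anhydrase activity that binds an inositol trisphosphate receptor in neurons, stood at 9.07, 119 and 188 CPM (lowest, median and highest) in APC Min/+ mice and at 100, 171 and 228 CPM in WT mice. The log2 fold change of Car8 was -0.77 (SE 0.61, FDR = 0.910), and -0.23 (SE 0.21) without M10_2 and M13_1. Over the 10 genes the median log2 fold change was -0.18 with 12 mice and 0.03 with 10, against -0.01 over all genes tested in each case.

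**Figure D3:**
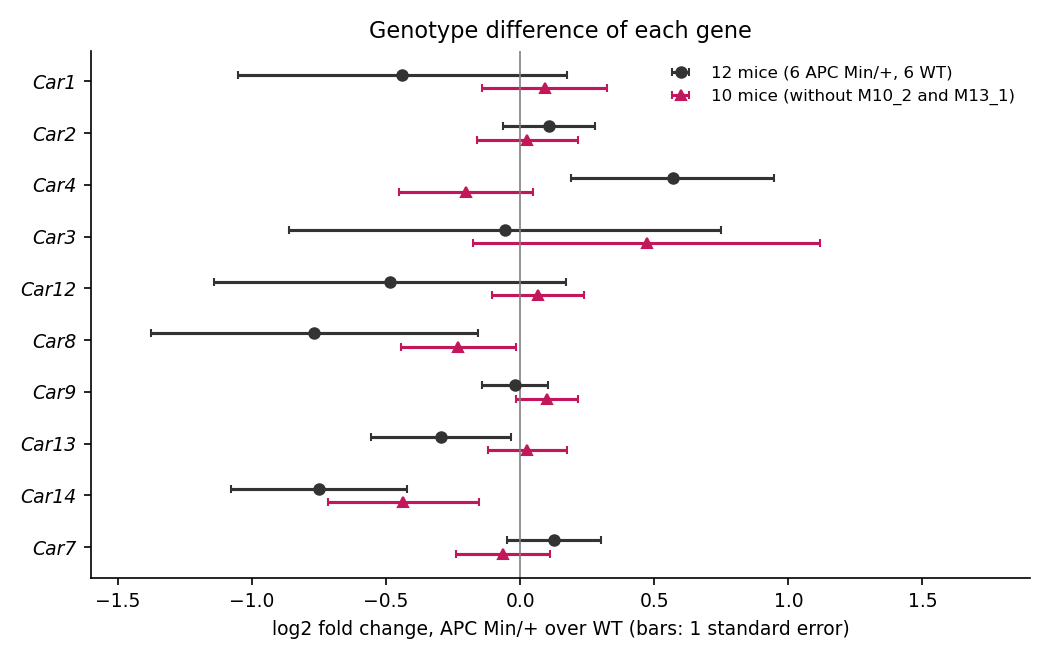
Log2 fold change, APC Min/+ over WT, of each carbonic anhydrase gene in edgeR, with bars of 1 standard error, for all 12 mice (circles) and for 10 mice without M10_2 and M13_1 (triangles). With 12 mice Car4 sits at 0.57 and Car8 at -0.77, and with 10 mice at -0.20 and -0.23.

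Against Hoxb13, the mice formed 2 clusters, so no correlation over all 12 is given, and the values of M10_2 and M13_1 are set against the range of the other 10 without a test. In 7 of the 10 carbonic anhydrase genes both mice lay below the other 10, and in 2 both lay above. Over all genes tested, both mice lay below the other 10 for 12.2% and above them for 11.8%. In bulk tissue, fewer cells of a type and less RNA per cell cannot be told apart.

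The gap was widest for Car12, with 9.34 CPM for M10_2 and 14.1 CPM for M13_1, against 170 to 335 CPM in the other 10. These levels were 0.0390 and 0.0588 of the median of those 10. Car1 and Car8 were also far below. Car1 was counted at 965 and 2539 CPM against 14621 to 32560 CPM, or 0.0469 and 0.123 of the median. Car8 was counted at 9.07 and 9.97 CPM against 100 to 228 CPM, or 0.0587 and 0.0645 of the median. These are a cytosolic enzyme, a surface enzyme and a protein without activity, on 3 different chromosomes.

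Smaller gaps were seen in Car13, with 20.9 and 22.9 CPM against 45.3 to 71.5 CPM, and in Car14, with 0.677 and 0.972 CPM against 1.49 to 4.48 CPM. Car3 was at 8.18 and 26.9 CPM, and the lowest of the other 10, WT mouse M17_2, was at 29.0 CPM, so its separation in M13_1 was slight. For Car9 the gap was nearly nil, with 46.8 and 46.5 CPM against a lowest value of 46.9 CPM in the others. Car4 lay above the other mice, with 924.01 and 952.93 CPM against 241 to 582 CPM, or 3.09 and 3.19 times the median of the 10. Car7 was also above, with 0.9998 and 0.972 CPM against 0.562 to 0.855 CPM. Car2 was the exception, with 1253 and 1385 CPM within a range of 806 to 1616 CPM. The genes of the chromosome 3 cluster therefore did not all move alike in these 2 mice. Car1, Car3 and Car13 lay below the others, by unlike amounts, and Car2 did not.

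**Figure D4:**
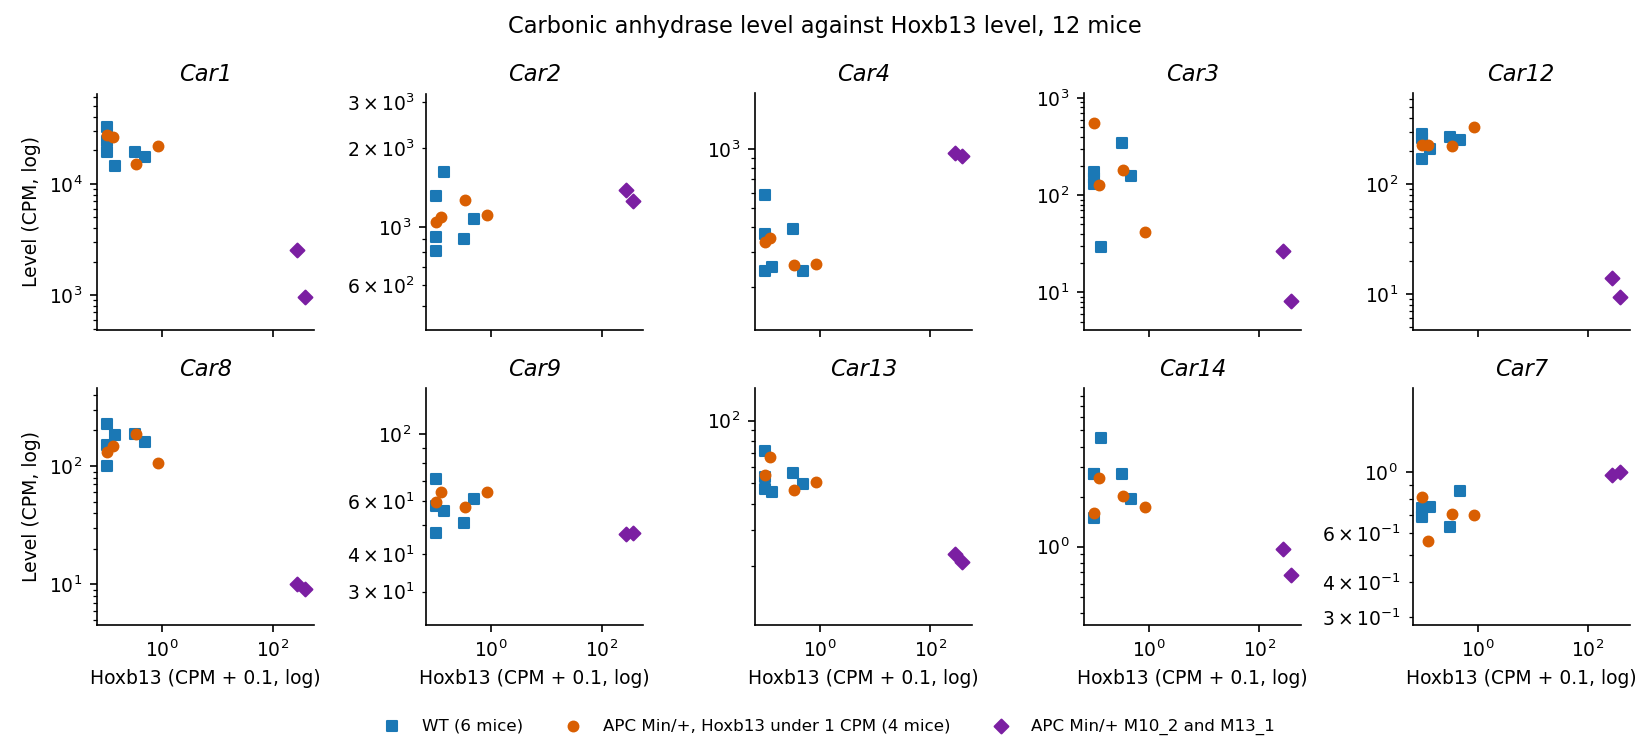
Level of each carbonic anhydrase gene (CPM, log axis) against Hoxb13 (CPM + 0.1, log axis) in 12 mice, with symbols as in the plot of levels. M10_2 and M13_1, at 378 and 275 CPM of Hoxb13, stand at the right; they lie below the other mice for Car1, Car12 and Car8, above them for Car4, and among them for Car2.

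Within the 10 mice under 1 CPM of Hoxb13, no carbonic anhydrase gene had a relation to the Hoxb13 level that passed an adjusted permutation p of 0.05. Pearson's r on log2(CPM + 0.1) ranged from -0.44 (Car1) to 0.53 (Car12). For Car1 the permutation p was 0.198 for r (adjusted 0.501 over all genes), and rho was -0.60 with a permutation p of 0.0725 (adjusted 0.232). For Car12 the permutation p was 0.123 for r (adjusted 0.443), and rho was 0.26 with a permutation p of 0.459 (adjusted 0.661). Without M8_2 and M19_1, the mice farthest from the median Hoxb13 level, r was -0.61 for Car1 and 0.15 for Car12. There rho was -0.74 for Car1 and -0.11 for Car12. No member had an unadjusted p under 0.05 by r or by rho, where 13.2% and 25.3% of 20310 genes did, and 0 of these genes had an adjusted p under 0.05. Hoxb13 in these 10 mice amounted to at most 145 counts, and 4 of the mice shared the value 0, so a relation could have been missed.

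Markers of cell types were set beside the members, 10 lists in all, of which the surface colonocyte list shares Krt20 with the epithelium list and holds the transporters Slc26a3 and Slc9a3. The 8 surface colonocyte markers summed to 4038 CPM in M10_2 and 4228 CPM in M13_1, below the 4897 to 8384 CPM of the other 10 mice. Their mean log2(CPM + 0.1), at 8.565 and 8.214, lay within the 8.033 to 9.393 of the others, and these markers did not move as one. Krt20, Guca2a, Cdhr5 and Mep1a lay below the other 10 in both mice, Ceacam20 lay above them, and the other 3 did neither. Guca2a, the precursor of guanylin, was at 315 and 185 CPM against 1155 to 1786 CPM, while Ceacam20 was at 199 and 177 CPM against 69.1 to 124 CPM. All 7 adipocyte markers lay below the other 10 in both mice, with sums of 26.5 and 49.9 CPM against 79.1 to 826 CPM. Of the 9 skeletal muscle markers 2 lay below and 2 above. Their sum was lower, at 22.4 and 18.6 CPM against 27.4 to 40.5 CPM, while their mean log2(CPM + 0.1) was -0.27 and -0.15, higher than the -0.93 to -0.49 of the others. The 6 goblet cell markers, with sums of 20000 and 11378 CPM against 8349 to 18365 CPM, were split as well. Clca1 (8931 and 4975 CPM, against 1272 to 2928) and Zg16 lay above, and Muc2 (1714 and 1268 CPM, against 2830 to 10534) and Spdef lay below. Of the 10 hypoxia genes Bnip3, Egln3 and Pdk1 lay above and Vegfa and Ndrg1 below, with sums of 1589 and 1719 CPM against 1581 to 2325 CPM. The 10 colon epithelium markers, such as Epcam, summed to 12609 and 11256 CPM against 11412 to 18515 CPM, and Cdh17, Krt20 and Cdx2 of these lay below. Smooth muscle markers were at 5850 and 6331 CPM (4529 to 7109 in the others), and 2 of the 7, Des and Cnn1, lay above. No marker lay outside the other 10 in both mice among the enteric neuron markers (83.8 and 70.6 CPM against 40.9 to 100), the red blood cell markers (65.0 and 87.5 CPM against 25.6 to 260) or the stratified squamous epithelium markers (3.26 and 3.36 CPM against 2.02 to 3.45). Over all genes tested, both mice lay below the other 10 for 12.2% and above them for 11.8%. Between genotypes, 0 markers of any list passed an FDR of 0.05 in edgeR. An unadjusted p under 0.05 was found for 3 smooth muscle markers and for 1 each of the goblet cell, skeletal muscle and hypoxia lists. Of all genes tested, 5.27% had such a p. The part of these cell types in the levels of Car1, Car8, Car12 and Car13 in M10_2 and M13_1 was not tested.

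Car3 moved with the adipocyte markers from mouse to mouse. All 7 of them, Adipoq, Plin1, Fabp4, Lep, Cfd, Cidec and Retn, were counted in every mouse, with a summed level of 26.5 to 826 CPM in APC Min/+ and 79.1 to 449 CPM in WT mice. The mouse with the most Car3, M2_A (556 CPM), had the highest adipocyte sum, and the mouse with the least, M10_2, had the lowest. Over 12 mice Car3 and the mean of the markers, both as log2(CPM + 0.1), correlated at r = 0.99 and rho = 0.97. The permutation p was 1e-05 for each, the smallest that 100000 resamples can give, and 0.00014 when adjusted over the 14 pairs of gene and list computed. Without M10_2 and M13_1, which were the mice farthest from the median of the marker mean, r was 0.99. The list was set with earlier results of these data known, so this relation is a description of these 12 mice. Among the 10 mice, the correlation of Car3 with skeletal muscle markers was 0.08 for r (permutation p = 0.825) and 0.05 for rho (permutation p = 0.892). Of those markers Myh4, a fast myosin of skeletal muscle, had a median of 0 CPM.

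Within the 10 mice, Car12 rose with the surface colonocyte markers, with r = 0.85 (permutation p = 0.00402, adjusted 0.0281) and rho = 0.88 (permutation p = 0.00177, adjusted 0.0124). Without M17_1 and M18_b, the mice farthest from the median of the markers, r was 0.79 in 8 mice (exact permutation p = 0.0205). Over all 12 mice, where M10_2 and M13_1 lay apart in Car12, the adjusted permutation p was 0.140 for r, while rho was 0.90 with an adjusted permutation p of 0.00189. Car13 had r = 0.58 with the same list in 10 mice (permutation p = 0.0836, adjusted 0.234) and rho = 0.65 (permutation p = 0.0492, adjusted 0.138), and over 12 mice rho was 0.74 with an adjusted permutation p of 0.0361. Car1 had r = 0.37 in 10 mice (permutation p = 0.305, adjusted 0.534). Car4 and Car7 went the other way over all 12 mice. There r was -0.62 for Car4 (permutation p = 0.0294, adjusted 0.137), and rho was -0.59 for Car7 (permutation p = 0.0480, adjusted 0.168). In 10 mice, r with this list was 0.47 for Car2, -0.46 for Car4 and -0.14 for Car7 (adjusted permutation p 0.358, 0.358 and 0.807), while rho of Car4 was 0.14. In the same 10 mice, Car9 and the 10 hypoxia genes had r = 0.59 (permutation p = 0.0756, adjusted 0.234) and rho = 0.67 (permutation p = 0.0395, adjusted 0.138). Over all 12 mice this relation was weaker, with r = 0.33 (permutation p = 0.292, adjusted 0.409) and rho = 0.32 (permutation p = 0.309, adjusted 0.405). Neither Car1 nor Car2, both abundant in erythrocytes, passed an adjusted p of 0.05 with red blood cell markers in 10 mice, where r was 0.28 (permutation p = 0.445) and -0.63 (permutation p = 0.0535).

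**Figure D5:**
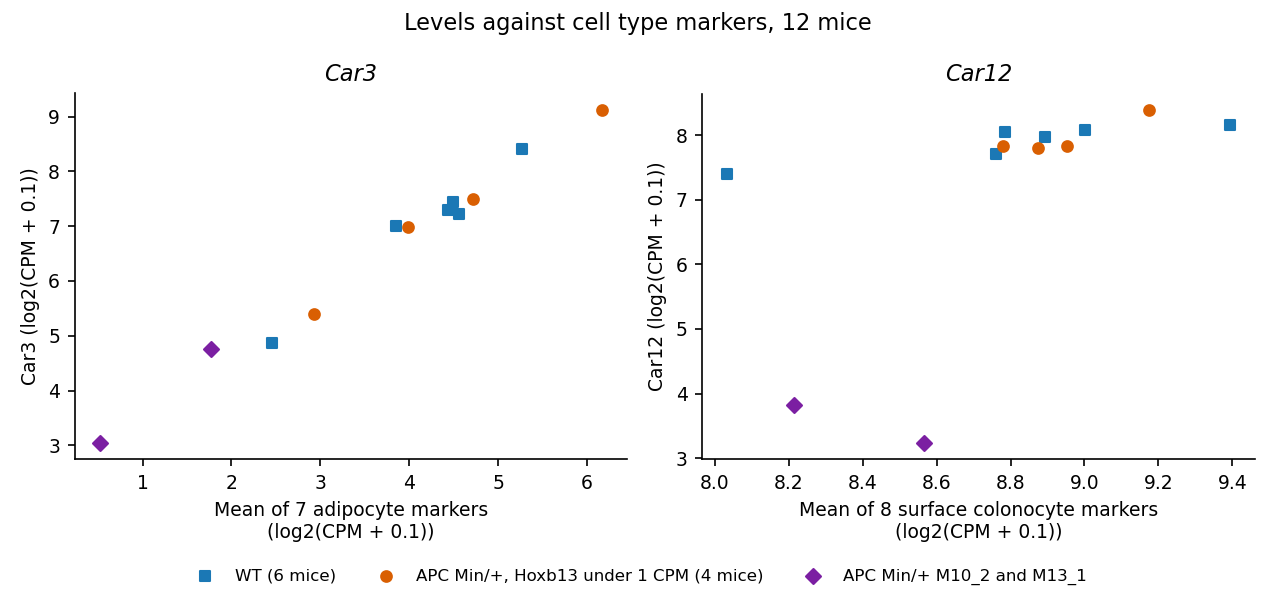
Log2(CPM + 0.1) of Car3 against the mean of 7 adipocyte markers (left) and of Car12 against the mean of 8 surface colonocyte markers (right) in 12 mice, with symbols as in the plot of levels. Car3 follows the adipocyte markers through all 12 mice (r = 0.99), and Car12 follows the surface markers in 10 mice (r = 0.85) with M10_2 and M13_1 far below.

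The members were also compared with each other in the 10 mice, over 45 pairs. Car8 and Car9 moved in opposite directions, with r = -0.89 (permutation p = 0.00072, adjusted 0.0297) and rho = -0.90 (permutation p = 0.00092, adjusted 0.0414). Without the 2 mice farthest from the median of Car8, r was -0.74. Car1 and Car13, which lie near each other on chromosome 3, moved together, with r = 0.85 (permutation p = 0.00132, adjusted 0.0297) and rho = 0.83 (permutation p = 0.00455, adjusted 0.102). Without the 2 mice farthest from the median of Car1, r was 0.71. The other pairs of genes of this cluster did not share this. Their r was 0.37 for Car1 and Car3, 0.30 for Car3 and Car13, -0.0051 for Car2 and Car13, -0.21 for Car1 and Car2, and -0.52 for Car2 and Car3. No other pair reached an adjusted p under 0.05 by r or by rho.

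The genes whose levels were most alike those of Car1 over the 12 mice, by Spearman's rho among 14709 genes with a median of at least 1 CPM, were Etfa (0.993), Ccdc58 (0.993), S100a10 (0.986), Nqo1 (0.986) and Sqor (0.986). Those most like Car2 were Dhodh (0.930), Zfp64 (0.902), Yars (0.888), Csrnp1 (0.881) and Jund (0.874). Car4 was most alike to Pla2g10os (0.951), Ldah (0.944), Rps6-ps3 (0.937), Oas1g (0.916) and Gcnt2 (0.909). Rps6-ps3 is a pseudogene, and its reads may not be separable from those of its parent gene. Car3 was most alike to Cfd (0.986), Hp (0.986), Plin1 (0.979), Cyp2e1 (0.979) and Glb1l2 (0.979), and Cfd and Plin1 are among the adipocyte markers above. All these values are the highest of 14709 over 12 mice, M10_2 and M13_1 included, so the selection itself raises them, and no test was made. In the other 10 mice, rho of the same genes was at least 0.976 with Car1, 0.915 with Car2, 0.903 with Car4 and 0.964 with Car3.

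Promoter sequence was at hand from RefSeq (GRCm38.p6, 250 bases before to 50 after the start) for 5 of the 10 members, Car4, Car7, Car9, Car12 and Car14, in 7 promoters. The 30 bases before the RefSeq start of Car9 (chr4:43506996-43507025, forward strand) lie inside the gene as GENCODE M21 places its start. They are shown because Car9 is a known hypoxia target and had the lowest coefficient of variation over all 12 mice. Within the 10 mice that of Car7 was slightly lower, 11.7% against 11.8%. The capitals mark ACGTG, the core of the hypoxia response element, as read on the reverse strand.
Car9: ctatttccgatgCACGTacagcccgtccac
Either strand of ACGTG was found in the 300 bases of 3 of these 5 members (Car4, Car9 and Car14) and in 19.6% of 32851 promoters of the table. Where CACGTG occurs, the 2 strands overlap and count once as a promoter with a match. The letters CAATAAA, a sequence bound by Hox proteins of group 13, were found on either strand in 0 of the 7 promoters and in 1511 of the 32851. The 100 bases before the RefSeq start of Car4 (chr11:84957654-84957753) and Car12 (chr9:66713586-66713685), both on the forward strand, are shown because these genes lay above and below the other mice where Hoxb13 was high.
Car4: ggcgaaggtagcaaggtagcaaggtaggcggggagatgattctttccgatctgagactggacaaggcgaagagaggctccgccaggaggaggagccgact
Car12: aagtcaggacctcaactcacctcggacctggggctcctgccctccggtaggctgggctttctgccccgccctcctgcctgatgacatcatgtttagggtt
A missing match says only that these letters are not in this window.

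The other 6 family genes were low. Car11, which lacks the activity of the enzyme, had the highest median among them, 2.40 RPKM, and Car5b, one of the mitochondrial isoforms, had 0.640 RPKM. Car15 (0.301 RPKM) and Car10 (0.0290 RPKM) passed the filter on counts. Car5a, the other mitochondrial isoform, and Car6, the secreted isoform of saliva, did not pass it, with 38 and 41 counts in all 12 mice together. Of these 4 genes 0 passed an FDR of 0.05 in edgeR (lowest 0.908), and 0 had an unadjusted p under 0.05. Car11 was counted at 3.11 and 3.29 CPM in M10_2 and M13_1, below the 4.04 to 6.69 CPM of the other 10.

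Carbonic anhydrases work beside the transporters that move protons and bicarbonate, and 21 such genes were listed, 20 of which passed the filter. Between genotypes 7 had a positive and 13 a negative log2 fold change, with a median of -0.07, and 0 had an FDR under 0.05 in edgeR, with a lowest FDR of 0.908. The 4 with the highest median level were Slc26a3, the apical chloride and bicarbonate exchanger (186 RPKM), Slc9a2, a sodium and proton exchanger (106 RPKM), Slc4a2, a basolateral anion exchanger (39.8 RPKM), and Slc9a3, the apical sodium and proton exchanger (37.3 RPKM). Their log2 fold changes were 0.42, -0.04, -0.33 and -0.66, with SEs of 0.27, 0.25, 0.20 and 0.43.

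An unadjusted p under 0.05 in edgeR was found for 2 of the 20, Atp12a and Best2, where 5.27% of all genes had one. Atp12a, the catalytic subunit of the proton and potassium pump of the colon, stood at 997 and 983 CPM in M10_2 and M13_1, against 1.44 to 7.77 CPM in the other 10 mice (log2 fold change 6.29, SE 1.62, FDR = 0.908). Best2, an anion channel of colonic goblet cells, was counted at 98.9 and 67.4 CPM, against 4.63 to 12.5 CPM (log2 fold change 1.98, SE 0.69, FDR = 0.908). In both genes the difference between genotypes lay in these 2 mice. Both mice lay above the other 10 for 2 of the 20 transporters and below them for 3, namely Slc4a7, Slc9a4 and Slc4a5. For Slc4a7 the gap was nearly nil in M10_2, with 163.4 and 151.7 CPM against a lowest value of 163.6 CPM. Slc9a4 was at 0.157 and 0.276 CPM against 0.747 CPM. Slc4a5 was barely counted, at 0.0808 and 0.0442 CPM against 0.112 CPM. Over all genes tested, the shares were 11.8% above and 12.2% below. Slc26a3 was counted at 1500 and 1998 CPM in them, against 438 to 1699 CPM.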

How the data were processed

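The authors aligned paired 100-base reads to GRCm38.p2 with STAR 2.3.0, assigned them to genes by featureCounts, and deposited raw counts and a gene length per gene for each mouse. The annotation release, strand setting and treatment of multiply mapped reads are not given in the sources used here, so reads shared between close copies of a gene may have been split or lost. Symbols and GRCm38 coordinates came from GENCODE M21, and promoters from RefSeq (GRCm38.p6).

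Genotypes were compared with the quasi-likelihood test of edgeR 4.0.16 (TMM, at least 10 counts in at least 3 mice, Benjamini-Hochberg FDR over all 20311 genes). The standard error was the size of the log2 fold change divided by the square root of F. DESeq2 1.42.0, the likelihood ratio test, RLE size factors, no filter, 12 fits leaving out 1 mouse each, the fit without M10_2 and M13_1 and an exact permutation test were the alternatives. CPM were scaled by TMM factors (0.906 to 1.10). Correlations used log2(CPM + 0.1) and 100000 permutations, or all orders in 8 mice. The 3-count floor corresponded to 0.0151 to 0.0560 CPM. Intervals and errors cover the mice sequenced; shipment and batch are not in the labels, so comparisons within them were not made.

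All 10 members were described by role. Of the transporters, those with the 4 highest medians or an unadjusted p under 0.05 were named, and for Car3 and the 3 most abundant members the 5 genes most alike. The members, the gene lists and the tests were chosen with earlier results of these data known. A sequence of 1 other member is not reported here.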

Additional observations from a re-analysis of the deposited data

How the results depend on the processing

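The number of carbonic anhydrase genes past an FDR of 0.05 was 0 under every alternative run. The number of all genes past an FDR of 0.05 and 2-fold rose from 0 to 27 with DESeq2 and to 15 with edgeR's likelihood ratio test; the cause was not tested. The 1 member with an unadjusted p under 0.05, Car14, became 0 without M10_2 and M13_1, and ranged from 0 to 1 when 1 mouse was left out: it was 0 without APC Min/+ M8_2, M10_2, M13_1 or M2_A and without WT M17_2, M18_2a, M17_1 or M18_b. Without M10_2 and M13_1 the log2 fold changes of Car1 (0.091), Car3 (0.47), Car4 (-0.20), Car7 (-0.065), Car9 (0.10), Car12 (0.066) and Car13 (0.027) turned sign. Leaving out 1 mouse turned Car3, between -1.05 and 0.28 (0.14 without M8_2, 0.19 without M10_2, 0.16 without M13_1, 0.28 without M18_2a), and Car9, between -0.073 and 0.063 (0.03 without M10_2 and without M13_1, 0.00069 without M19_1, 0.063 without M18_b). All of these fits gave FDR values of at least 0.930 for the genes that turned. Without the 2 mice farthest in Hoxb13, r turned to 0.14 for Car3, -0.28 for Car7, 0.43 for Car8, -0.28 for Car9 and 0.11 for Car14. With marker lists, leaving out the 2 mice farthest in the score turned r to -0.026 for Car2 with surface colonocytes and to 0.080 for Car3 with skeletal muscle. Without M10_2 and M13_1 r became 0.28 for Car1 with red blood cells, 0.080 for Car3 with skeletal muscle, 0.15 for Car8 and 0.19 for Car14 with enteric neurons, and 0.85 for Car12 with surface colonocytes, with an adjusted p of 0.0281 in place of 0.140. The order by median RPKM was the same on a TPM scale and, in a check added after the data were seen, without M10_2 and M13_1. No paired analysis was possible because no mouse tag is shared whole between genotypes and the labels do not say what a part of a tag, such as M18 or the ending _1, stands for. The fewest counts lay behind Car7 (40 to 198 per mouse) and Car14 (88 to 337 per mouse).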
